A study of Homo sapiens with 6 samples.

Results

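The spliceosome proteins and the heterogeneous nuclear ribonucleoproteins (hnRNPs) were described in human embryonic kidney (HEK293) cells in which the long noncoding RNA *HSALNG0134318* had been targeted. The genes were chosen by symbol: *HNRNP* genes, *SNRP* genes, *SF3A* and *SF3B* genes, and *PRPF* genes with at least 10 counts in every library, leaving out pseudogene and antisense names. This rule was met by 53 of the 26485 gene names in the counts, namely 20 hnRNP, 11 SNRP, 9 SF3A and SF3B and 13 PRPF genes, and all 53 were tested. A further 7 names fell under the count minimum. These were *HNRNPCL1* to *HNRNPCL4*, *HNRNPUL2-BSCL2*, *HNRNPH2* and *SNRPN*.

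Introns are removed from pre-mRNA by the spliceosome, which assembles from the U1, U2, U4, U5 and U6 small nuclear ribonucleoproteins (snRNPs). A ring of Sm proteins, encoded by *SNRP* genes, encircles the RNA of most snRNPs, SF3A and SF3B hold the U2 snRNP at the branch point, and several PRPF proteins belong to the U4/U6.U5 tri-snRNP. The hnRNPs coat nascent transcripts and influence which splice sites are used, and in dividing cells such as HEK293, a line derived from embryonic kidney, both groups are abundant housekeeping genes.

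Polyadenylated RNA was sequenced with a stranded kit from 3 HEK293 libraries of the knockdown group and 3 of the control group. The knockdown cells were transiently transfected with a Smart Silencer against *HSALNG0134318*, that is, siRNAs together with antisense oligonucleotides directed at 1 transcript. The labels give the controls as WT in the genotype and NC in the description, and what these cells were transfected with was not given in the sources used here. Knockdown replicates 1, 2 and 3 were numbered 1, 4 and 5 in the labels, and control replicates 1, 2 and 3 were numbered 10, 11 and 1. The methods of the study state that each group had 3 biologically independent experiments. Nothing in the labels ties the libraries of a group to separate cultures. The p-values therefore measure the spread between these libraries, which may be technical in part. The silenced RNA itself is not listed among the counted genes, so its level gives no check of the group labels.

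Total counts ranged from 13900965 to 16869948 per library. Among the markers checked for HEK293, *VIM*, *KRT8*, *KRT18*, *NEFM*, *NEFL* and *PAX2* were detected in every library, at the lowest 6.41 CPM (counts scaled to library size) for *PAX2*. Genes of podocytes, tubules, blood, liver and endothelium (*NPHS1*, *UMOD*, *AQP2*, *SLC12A1*, *PTPRC*, *HBB*, *ALB* and *PECAM1*) had 0 to 6 counts, whereas the collagen gene *COL1A1* was present at 39.0 to 50.3 CPM. Control replicate 2 stood apart from the other libraries. The chi-square of its counts per gene was 26.6 against control replicate 1 and 28.1 against control replicate 3, while it was 9.90 between control replicates 1 and 3 and 1.94 to 6.49 within the knockdown group. For some of the genes described here, the value without control replicate 2 is given as well.

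The upstream sequences of the genes were searched for 3 short motifs that promoters of housekeeping genes often carry. RefSeq windows (GRCh38.p14) were found for 46 of the 53 genes, and the 250 bases before the annotated start were read on both strands. For some genes these bases lie partly or wholly in annotated exons. CCGGAAG, the core of the sequence that ETS transcription factors recognise, was found in 18 of the 46 windows (39.1%), against 11.3% of all 15785 windows and 15.1% of the 10845 windows of genes tested here. It was present in 7 of 10 *SNRP* windows, 6 of 8 *SF3A* and *SF3B* windows, 2 of 9 *PRPF* windows and 3 of 19 hnRNP windows. CCAAT was found in 24 of 46 windows (52.2%; 35.0% of the windows of tested genes) and GGGCGG in 28 of 46 (60.9%; 67.5%). Matches of different motifs can share letters at their ends, and a match describes letters only. The genes without a window included *HNRNPA1*, *PRPF3*, *PRPF39*, *PRPF4B*, *SF3B3* and *SNRPD1*.

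Below are stretches that end at or near the RefSeq start, with bases in exons of GENCODE release 44 left out, on the minus strand of chromosomes 11, 10, 2 and 1. *PRPF19* (chr11:60906586-60906705) and *HNRNPF* (chr10:43408883-43408977) are shown because their counts differed between the groups, and *SNRPG* (chr2:70293459-70293578) and *SF3B4* (chr1:149927804-149927923) because they carry the CCGGAAG letters of the snRNP genes. The stretches of *PRPF19* and *SF3B4* lie before the GENCODE gene, and those of *HNRNPF* and *SNRPG* lie within its bounds, in introns of transcripts that start farther upstream. Capitals mark CCGGAAG and CCAAT or their complements (CTTCCGG and ATTGG).
PRPF19: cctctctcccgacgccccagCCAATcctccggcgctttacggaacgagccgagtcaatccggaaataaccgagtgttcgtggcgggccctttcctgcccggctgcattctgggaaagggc
HNRNPF: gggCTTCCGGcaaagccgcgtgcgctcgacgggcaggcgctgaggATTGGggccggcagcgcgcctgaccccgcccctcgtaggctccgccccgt
SNRPG: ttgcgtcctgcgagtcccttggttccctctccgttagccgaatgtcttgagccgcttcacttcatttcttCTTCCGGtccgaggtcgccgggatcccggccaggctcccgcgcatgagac
SF3B4: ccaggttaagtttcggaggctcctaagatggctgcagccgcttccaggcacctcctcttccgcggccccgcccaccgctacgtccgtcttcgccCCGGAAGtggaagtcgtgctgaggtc

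Among the 5 genes whose counts differed, *HNRNPF* and *SF3B2* held CCGGAAG and 3 held CCAAT. None of the 3 motifs searched was held by all 5. For *HNRNPM*, *SF3B2* and *PRPF31* all 120 bases before the RefSeq start lay in GENCODE exons.

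The 53 genes took 2.07% to 2.12% of all counts in the knockdown libraries and 1.98%, 1.90% and 2.16% in control replicates 1, 2 and 3. Levels were compared between genes as TPM, which scales the counts by transcript length (Ensembl canonical transcript) and by library. The hnRNPs were the most abundant, led by *HNRNPA2B1* at 1602 ± 56.8 TPM in the knockdown group and 1499 TPM in the control group. *HNRNPA1* (1601 ± 63.6 TPM in the knockdown group) differed from it by less than the spread, and both proteins bind splicing silencers. The lowest hnRNP was *HNRNPUL2*, a relative of the nuclear scaffold protein HNRNPU, at 31.2 ± 1.21 TPM, close to *HNRNPLL* (32.9 ± 0.309 TPM) and *HNRNPA1L2* (34.2 ± 4.97 TPM).

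**Figure D1:**
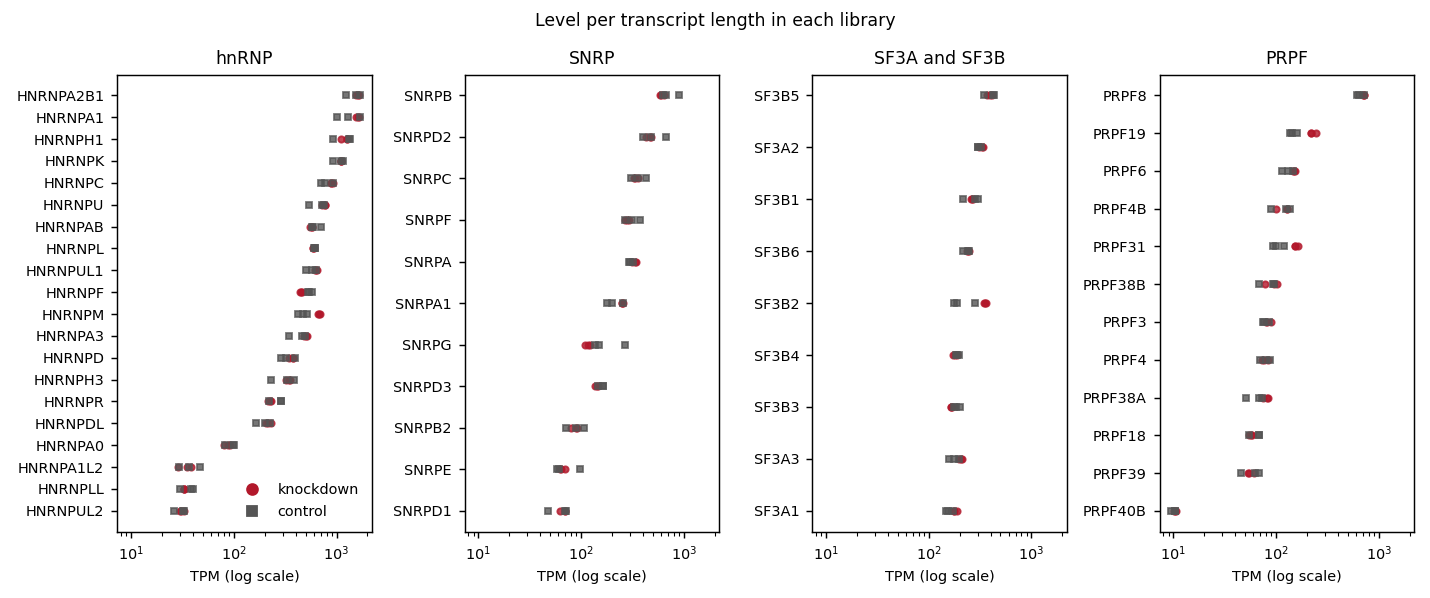
Level per transcript length of the genes in the 6 libraries, in TPM on a log scale, by family; circles are knockdown and squares are control libraries. The hnRNP panel spans from 30.5 TPM for *HNRNPUL2* to 1499 TPM for *HNRNPA2B1* (control means), and the SF3A and SF3B panel is the narrowest.

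Among the snRNP proteins *SNRPB*, an Sm ring protein, was highest at 609 ± 31.3 TPM in the knockdown group and 728 TPM in the control group, and *SNRPD1*, another ring protein, was lowest in the controls at 62.6 TPM. The ring holds its 7 proteins in equal number, yet the transcript levels of their genes ranged from 62.6 to 728 TPM in the controls, a scale that depends on the canonical length (4858 nucleotides for *SNRPD1*). *SNRPD1* and *SNRPE* (65.6 ± 4.16 TPM in the knockdown group) did not differ beyond their spread. The SF3A and SF3B levels lay closer together, from 158 TPM for *SF3A1* to 400 TPM for *SF3B5* in the controls. Of the PRPF genes *PRPF8*, the scaffold at the centre of the spliceosome, was highest at 713 ± 6.46 TPM in the knockdown group, and *PRPF40B*, a homologue of a yeast U1 snRNP protein, lowest at 10.4 ± 0.249 TPM.

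In the comparison of knockdown with control, 4 genes rose and 1 fell, and 48 did not pass the test (edgeR, adjusted p under 0.05 over 14877 genes). *HNRNPM*, *SF3B2*, *PRPF19* and *PRPF31* were higher in the knockdown group and *HNRNPF* was lower. The 4 higher genes were 7.55% of the 53 genes against 5.4% of all genes tested, and the 1 lower gene was 1.89% against 4.64%, so neither share stood far from the background. The values of the groups did not overlap for 11 of the 53 genes (20.8%), against 32.2% of all genes. The median log2 fold change of the 53 genes was -0.01, with 29 negative and 24 positive values, beside -0.02 over all genes. Since bulk RNA was sequenced, a change in RNA per cell and a change in the mix of cells cannot be told apart.

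**Figure D2:**
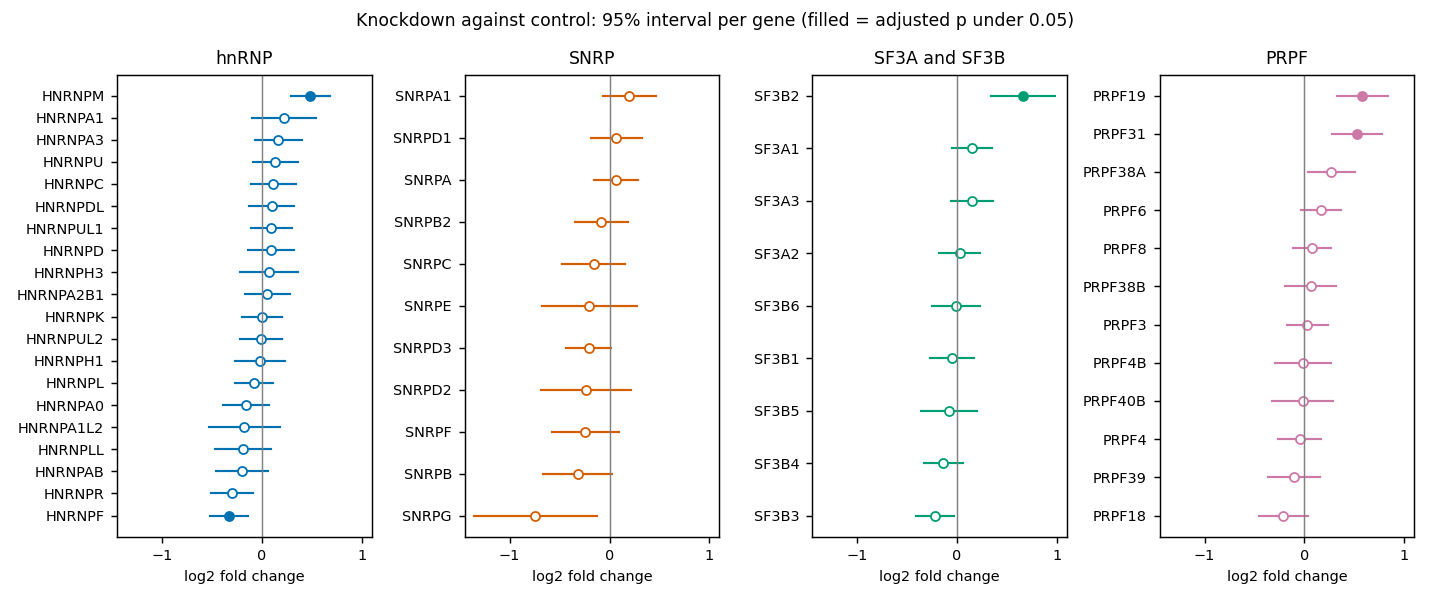
Log2 fold change of the genes by family, knockdown over control, with its 95% interval (edgeR, n = 3 libraries per group); filled circles passed an adjusted p of 0.05. The filled circles are *HNRNPM*, *SF3B2*, *PRPF19* and *PRPF31* to the right of 0 and *HNRNPF* to the left, and the widest interval is that of *SNRPG*.

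Most of the genes that did not pass were measured closely. For 44 of the 48 (91.7%) the 95% interval of the change lay within 1.5-fold in either direction, against 60.0% of all genes that did not pass. The 48 genes had at least 10 counts in every library, which was not required of all genes tested. These shares were therefore not matched for count level. The other 4 were *SNRPG*, *SNRPB*, *SNRPE* and *SNRPD2*, all of the Sm ring. The control libraries varied more than the knockdown libraries, with a larger SD in 49 of 53 genes (92.5%; 72.7% of all genes tested) and a median coefficient of variation of 12.6% against 4.65%.

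Of the 20 hnRNP genes 1 rose and 1 fell (5% each, beside 5.4% and 4.64% of all genes). *HNRNPM* encodes a protein that binds GU-rich RNA and influences exon choice, and lies at chr19:8444767-8489114 on the plus strand (hg38). Its normalized counts were 8912, 8512 and 8039 in knockdown replicates 1, 2 and 3 and 5808, 5853 and 6557 in control replicates 1, 2 and 3. Every knockdown library exceeded every control library. The means were 8488 ± 437 and 6073 ± 420 (SD, n = 3), a log2 fold change of 0.48 (SE 0.09, adjusted p = 0.0076 by edgeR). The call was lost without knockdown replicate 1 or without knockdown replicate 2 (highest adjusted p = 0.0504).

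*HNRNPF*, at chr10:43385617-43409186 on the minus strand, encodes a protein that binds G-rich RNA. It had 6117, 5783 and 5595 normalized counts in the knockdown libraries and 7256, 7792 and 6963 in the control libraries. The groups did not overlap. The means were 5832 ± 264 and 7337 ± 420 (SD, n = 3), and the log2 fold change was -0.33 (SE 0.09, adjusted p = 0.0351 by edgeR). This was the least stable call, kept in 10 of the 15 other settings beside 11 for *SF3B2* and for *PRPF31*. Among the fits without 1 library, the call of *HNRNPF* was lost without control replicate 1 and without each knockdown library in turn (highest adjusted p = 0.190). The calls of *SF3B2* and *PRPF31* were lost in the same fits. Without control replicate 2 the log2 fold change of *HNRNPF* was -0.29 with an adjusted p of 0.0166.

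*HNRNPR*, a relative of SYNCRIP, came next, with 8624, 8946 and 8661 normalized counts in the knockdown group and 11055, 9536 and 11621 in the control group. The groups did not overlap, and its log2 fold change of -0.30 (SE 0.10) had an adjusted p of 0.0739. Without control replicate 2 it was -0.38 with an adjusted p of 0.0026, and *HNRNPR* then passed. The log2 fold change of *HNRNPAB*, which binds AU-rich RNA, was -0.20 (adjusted p = 0.303), and control replicate 2 alone was high, at 7053 normalized counts against 5141 and 5275. Without that library its log2 fold change was -0.04 (adjusted p = 0.743).

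Neither gene of the pairs *HNRNPA1* and *HNRNPA1L2* or *HNRNPUL1* and *HNRNPUL2* passed, nor did *HNRNPH1*, a relative of *HNRNPF*. *HNRNPA1* had a log2 fold change of 0.22 with a 95% interval of -0.10 to 0.54, and its copy *HNRNPA1L2* one of -0.18 (-0.53 to 0.18). *HNRNPA1L2* and the pseudogene *HNRNPA1P10* (84 to 126 counts) are near-identical in sequence to *HNRNPA1*, so their counts are uncertain. *HNRNPA1* passed only without control replicate 3 (adjusted p = 0.0154), the control library that held 33074 normalized counts beside 23618 and 21398. Without control replicate 2 the log2 fold changes of *HNRNPA1* and *HNRNPH1* were 0.10 and -0.14. *HNRNPH1* (log2 fold change -0.02, interval -0.27 to 0.23) had 11590 to 15381 normalized counts over the libraries, while *HNRNPH2*, its X-linked paralogue, was listed at 0 to 3 counts. A read-through gene with the name *RPL36A-HNRNPH2* covers 10% of the *HNRNPH2* exons on the same strand. *HNRNPUL1* and *HNRNPUL2* had log2 fold changes of 0.09 (-0.11 to 0.30) and -0.01 (-0.22 to 0.20), and 45.9% of the *HNRNPUL2* exons lie in *HNRNPUL2-BSCL2*. How reads shared by such genes were counted was not given in the sources used here.

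None of the 11 *SNRP* genes passed in the main edgeR fit. Among other edgeR settings, *SNRPB* was called lower with the correction for GC content and length (adjusted p = 0.0275). *SNRPG* was called lower with the replicate number as a block (adjusted p = 0.0288). *SNRPA1* was called higher without control replicate 3 (adjusted p = 0.0345). With limma-voom none passed and with DESeq2 1 passed, *SNRPG* (adjusted p = 0.0129). The median log2 fold change was -0.20, with 8 of 11 values negative. *SNRPG*, an Sm ring protein gene at chr2:70281362-70293740 on the minus strand, had 370, 347 and 323 normalized counts in the knockdown libraries and 403, 881 and 454 in the control libraries. The groups did not overlap, but control replicate 2 lay far above the other controls. The log2 fold change of -0.74 (SE 0.27, adjusted p = 0.119) was the lowest of the 53 and became -0.30 (adjusted p = 0.0942) without control replicate 2.

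*SNRPB* had 3597, 3264 and 3134 normalized counts in the knockdown group and 3314, 5385 and 3765 in the control group. Its groups overlapped, with a log2 fold change of -0.32 (SE 0.16, adjusted p = 0.220) that became -0.09 without control replicate 2. *SNRPN*, the imprinted paralogue of *SNRPB*, was listed at 0 in all 6 libraries. Of its exons 22.0% overlap *SNURF* on the same strand, and the part of the counting in this 0 was not tested.

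Control replicate 2 was the highest of the 6 libraries in 8 of the 11 *SNRP* genes and in 6 of the 7 Sm ring genes. Over all 53 genes it was the highest library in 18 and the lowest in 18. Relative to the mean of control replicates 1 and 3, its log2 normalized count was 1.04 for *SNRPG*, 0.85 for *SNRPE*, 0.74 for *SNRPD2*, 0.61 for *SNRPB*, 0.53 for *SNRPF* and 0.51 for *SNRPC*, a U1 snRNP protein gene. The exception in the ring was *SNRPD1*, where it was -0.40. Without this library the log2 fold changes of *SNRPE* and *SNRPD2* were 0.14 and 0.06 in place of -0.20 and -0.24, and the median of the 11 genes was -0.04. The lower *SNRP* median therefore rested on 1 control library.

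**Figure D3:**
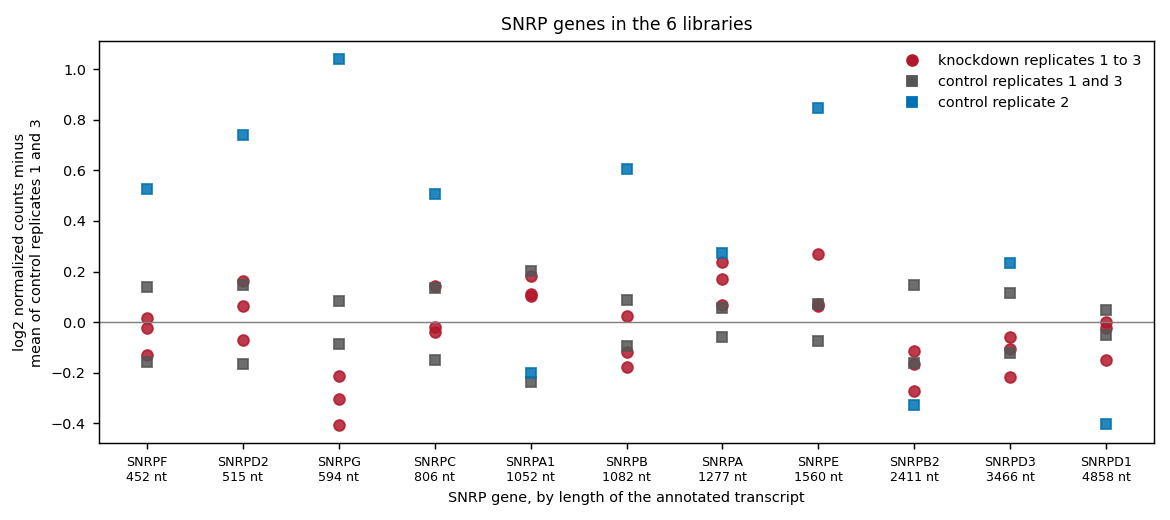
The 11 *SNRP* genes in the 6 libraries, ordered by transcript length; the vertical axis is the log2 normalized count minus the log2 of the mean of control replicates 1 and 3. The blue square of control replicate 2 lies above all other points for 8 genes, up to 1.04 for *SNRPG*, and below them for *SNRPD1* and *SNRPB2*.

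*SNRPA* (U1) and *SNRPB2* (U2) encode closely related RNA-binding proteins that sit in different snRNPs. Their log2 fold changes were 0.06 (95% interval -0.16 to 0.29) and -0.08 (-0.35 to 0.19).

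Of the 9 SF3A and SF3B genes 1 rose (11.1%, beside 5.4% of all genes). *SF3B2* (chr11:66050729-66069308, plus strand) encodes a subunit that contacts the pre-mRNA near the branch point. Its normalized counts were 5983, 5669 and 5829 in the knockdown libraries and 3077, 3217 and 4757 in control replicates 1, 2 and 3. All knockdown libraries were higher, and the control group was spread by the higher replicate 3. The means of 5827 ± 157 and 3684 ± 932 (SD, n = 3) gave the largest rise of the 53, a log2 fold change of 0.66 (SE 0.14, adjusted p = 0.0156 by edgeR). The adjusted p rose above 0.05 without control replicate 1 and without each knockdown library (highest 0.0750), and the log2 fold change ranged from 0.55 to 0.89 over 15 other settings.

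The other subunits with an SF3B name did not pass. *SF3B1*, which grips the branch point helix, had a log2 fold change of -0.05 (95% interval -0.27 to 0.17), *SF3B4*, which pairs with SF3B2 in the complex, -0.14 (-0.33 to 0.06), and *SF3B5*, a small subunit, -0.08 (-0.36 to 0.20). *SF3B3*, a large repeat protein, had 8510, 8055 and 7906 normalized counts in the knockdown group and 9600, 9901 and 8912 in the control group. Its groups did not overlap, yet the log2 fold change of -0.22 (SE 0.09) had an adjusted p of 0.138. The 3 SF3A genes had log2 fold changes between 0.03 and 0.15, and *SF3A1*, the largest SF3A subunit, had 0.15 (SE 0.09, adjusted p = 0.314).

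Of the 13 PRPF genes 2 rose (15.4%, beside 5.4% of all genes). *PRPF19* (chr11:60890547-60906585, minus strand) encodes the ubiquitin ligase after which the Prp19 complex is named. It had 2979, 2554 and 2540 normalized counts in the knockdown libraries and 1569, 2088 and 1745 in the control libraries, so that the groups did not overlap. The means were 2691 ± 250 and 1801 ± 264 (SD, n = 3), and the log2 fold change was 0.58 (SE 0.12, adjusted p = 0.0103 by edgeR). The call was lost only without knockdown replicate 1, among the 15 settings tried (adjusted p = 0.0583). Without control replicate 2 the log2 fold change was 0.70.

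*PRPF31* (chr19:54115410-54131719, plus strand) encodes a protein that bridges U4/U6 and U5 in the tri-snRNP and whose loss causes retinitis pigmentosa. Its normalized counts were 1529, 1425 and 1391 in the knockdown group and 849, 1019 and 1143 in the control group. Again every knockdown library was above every control library. The log2 fold change was 0.53 (SE 0.11, adjusted p = 0.0143 by edgeR), from 1004 ± 148 to 1448 ± 71.7 (SD, n = 3). It lost the call without control replicate 1 or any 1 knockdown library (highest adjusted p = 0.0743).

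The other tri-snRNP genes with a PRPF name did not pass. *PRPF8* had 27065, 25984 and 25659 normalized counts in the knockdown group and 25741, 24737 and 24321 in the control group, with a log2 fold change of 0.07 and a 95% interval of -0.11 to 0.26. *PRPF6*, a bridging protein of the tri-snRNP, did not overlap between groups but had an adjusted p of 0.277 (log2 fold change 0.16), and *PRPF3* and *PRPF4*, which bind U4/U6, had 0.03 and -0.05.

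*PRPF38A*, needed to activate the assembled spliceosome, had 2009, 2168 and 2161 normalized counts in the knockdown group and 1779, 1498 and 1981 in the control group. The groups did not overlap, but the log2 fold change of 0.27 (SE 0.11) had an adjusted p of 0.133. It passed in 3 of the 15 other settings, among them the correction for GC content and length (adjusted p = 0.0129) and without control replicate 3 (adjusted p = 0.0436). Without control replicate 2 the log2 fold change of *PRPF38A* was 0.17 (adjusted p = 0.184 by edgeR). Its relative *PRPF38B* had 0.06 (95% interval -0.19 to 0.32). For *PRPF18*, which acts in the second step of splicing, the groups did not overlap and the log2 fold change was -0.21 (adjusted p = 0.250). *PRPF40B* had -0.02 (-0.32 to 0.29). On the opposite strand *FMNL3* overlaps 54.2% of the *PRPF40B* exons and *FKBP3* 18.5% of the *PRPF39* exons.

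The deviation of control replicate 2 went with transcript length and with GC content. Across the 53 genes its log2 ratio to the other controls had a Pearson correlation of -0.62 and a Spearman correlation of -0.53 with the log2 length of the canonical transcript (all genes tested with a length, n = 14476: -0.29 and -0.37). With GC content these were 0.36 and 0.48 for the 53 genes and 0.48 and 0.56 for all. For genes of the families with 1000 nucleotides or more they were -0.39 and -0.35 with length and 0.48 and 0.57 with GC content. Among all tested genes under 1000 nucleotides the correlations with length were 0.16 and 0.09. The points share their libraries, so these are descriptions. The 6 genes under 1000 nucleotides had a median of 0.52 and the 1057 such genes among all tested 0.32. Its part in the results was not tested beyond leaving the library out and the correction for GC content and length.

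**Figure D4:**
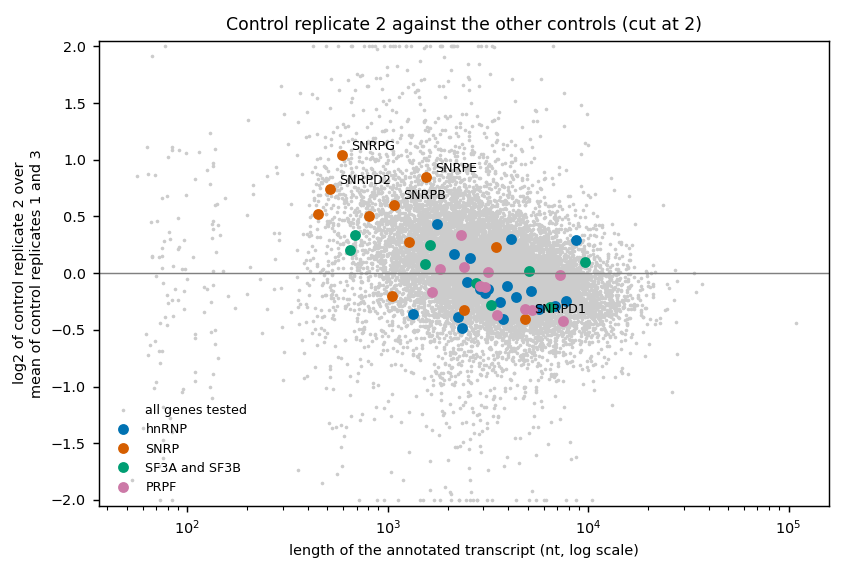
Log2 ratio of control replicate 2 to the mean of control replicates 1 and 3 against transcript length (log scale) for each gene tested, with values beyond 2 drawn at the edge; grey points are all genes tested with a length and coloured points are genes of the 4 families. Of the coloured points, short *SNRP* genes lie highest, up to 1.04 for *SNRPG*.

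Other proteins of the splicing machinery were counted from lists that do not include these 53 genes. Of 38 tested proteins of the U1, U2, U4/U6.U5 and minor snRNPs, 3 rose (7.89%, beside 5.4% of all genes) and 1 fell (2.63%, beside 4.64%). With 1 library left out these counts ranged from 1 to 6 and from 0 to 3, both highest without control replicate 2. The share of all genes moved too. Without control replicate 2, 8.45% were called higher and 8.21% lower. Without 1 knockdown library, 1.91% to 2.25% were called higher and 1.54% to 1.67% lower. Of 32 proteins of the Prp19 complex, the step helicases and exon junction loading, 1 rose (3.12%) and 0 fell with edgeR. DESeq2 called *HSPA8* lower as well and limma-voom 0 lower. *HSPA8* (log2 fold change -0.59, adjusted p = 0.0764 by edgeR) overlapped between the groups. It was also called with the replicate number as a block, with block and correction, without knockdown replicate 1 and without control replicate 3. *CRNKL1* was called higher with the correction, and *CRNKL1* and *SLU7* with block and correction. *EIF4A3* was called higher without control replicate 2, and *CRNKL1* and *DHX38* without control replicate 3. Of all genes, 4.16% were called lower and 4.80% higher with the block, and 8.60% and 7.92% with block and correction. *SART1*, a tri-snRNP protein, had 1691, 1540 and 1459 normalized counts in the knockdown group and 625, 674 and 968 in the control group. With a log2 fold change of 1.05 (SE 0.15, adjusted p = 0.0016 by edgeR), it exceeded all 53 genes in size and passed under all 15 other settings.

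*PHF5A*, the small SF3B subunit that bears no SF3 name, had 525, 477 and 480 against 250, 369 and 275 normalized counts, a log2 fold change of 0.73 (SE 0.15, adjusted p = 0.0118 by edgeR). It did not overlap between groups and lost the call without knockdown replicate 1 or control replicate 1. *PDCD7*, of the minor U11/U12 snRNP, rose by 0.63 on the log2 scale (adjusted p = 0.0250), and *PLRG1*, which sits in the same complex as PRPF19, by 0.49 (adjusted p = 0.0095). *SNRNP27*, of the tri-snRNP, fell by 0.53 on the log2 scale (SE 0.11, adjusted p = 0.0123), from 1081, 925 and 1176 to 699, 759 and 742 normalized counts. Its call and that of *PDCD7* were lost without control replicate 1 or any 1 knockdown library, and that of *PLRG1* without knockdown replicate 2 or 3. Without control replicate 2 *PHF5A* rose by 0.91 and *PDCD7* by 0.80 on the log2 scale.

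The remaining lists gave no call with edgeR as described above, though some with other settings. Of all genes, DESeq2 called 5.75% lower and 6.17% higher, and the correction for GC content and length 10.2% and 8.95%. With no filter these shares were 4.01% and 4.16%. Without control replicate 2 they were 8.21% and 8.45%, and without control replicate 3 they were 6.57% and 7.18%. Of 12 other hnRNP proteins 0 passed. *PCBP2* alone passed by DESeq2 and without control replicate 2 or 3, and *PCBP1* alone with no filter on low counts. By limma-voom 0 passed, and 3 (*PCBP1*, *PCBP2* and *PCBP4*) passed with the correction for GC content and length. Of 13 LSM proteins, which form rings like the Sm proteins, 0 passed. *LSM11* alone passed by DESeq2, with the correction, with no filter and without control replicate 3, and 0 passed by limma-voom. Without control replicate 2 *LSM4*, *LSM6* and *LSM7* were called higher and *LSM11* lower. Of 14 tested proteins of the SMN complex and methylosome, which load the Sm ring onto snRNA, 0 passed with edgeR, DESeq2 or limma-voom. With the correction 2, *SNUPN* and *STRAP*, were called higher, as was *STRAP* without control replicate 3. *SMN1* and *SMN2* were listed at 0 counts in every library and were not among those tested. The part of the counting in this 0 was not tested. The genes named from these lists and *HSPA8* were named after their values were seen.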

How the data were processed

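The authors deposited raw read counts per gene for 6 HEK293 libraries, without normalization. The submitters' processing notes name FastQC 0.11.9, Trim Galore 0.6.6, STAR 2.7.9a, featureCounts 2.0.1 and build hg38. The strand setting, the gene annotation and the treatment of reads shared by genes were not given in the sources used here, and the methods of the study name other releases of the aligner and counter and a step that removes ribosomal RNA reads. Reads of overlapping or near-identical genes may thus be split or lost.

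Counts were filtered with filterByExpr (14877 of 26485 names kept), normalized with TMM and tested without a block by edgeR 4.0.16 (R 4.3.3, quasi-likelihood F test, robust). Genes under 0.05 after Benjamini-Hochberg adjustment over all tested genes were called. The biological coefficient of variation was 12.4%. For normalized counts, each library was rescaled to the average effective library size. Total counts of 13900965 to 16869948 gave standard errors of 0.09 to 0.27 on the log2 scale for the 53 genes. Positions, lengths and GC content came from GENCODE release 44 on GRCh38, where 23161 names matched by symbol, 1357 through a synonym and 1967 not at all, and 97.3% of tested genes had values. Promoter windows came from RefSeq, 1 a gene.

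Alternatives were DESeq2 size factors in edgeR, library sizes alone, no filter, at least 10 counts in every library, the DESeq2 1.42.0 Wald test, limma-voom (limma 3.58.1), the replicate number as a block, a loess correction (span 0.3) for GC content and length with and without the block, and each library left out. The edgeR fit, its block and its correction, limma-voom and DESeq2 were checked on simulated counts, and the other alternatives were not. There edgeR found 182 of 200 planted changes among 14743 genes beside 16 false calls. With the block it found 190 beside 29 false calls. When nothing was planted, edgeR gave 0 calls among 14722. The planted changes were larger than those of the genes described here, and the simulated libraries had no bias with length or GC content. How well smaller changes are found was not tested.

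Named genes were the called genes, 2 uncalled genes of smallest p and the highest and lowest level in each family, paralogue pairs, and at most 5 called genes of each other list. Other members were added to complete a complex. Single results of 1 PRPF gene and 1 marker are not reported here, and the gene stays in the counts, medians and tests. The members and lists were chosen with earlier results of these data known. Figures were drawn with matplotlib 3.10.9 in Python 3.11.15.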

Additional observations from a re-analysis of the deposited data

How the results depend on the processing

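The 5 calls kept their direction under all 15 alternatives. Of the genes of the 4 families, 2 were called lower with DESeq2 and 3 with the correction for GC content and length (*HNRNPF*, *SNRPB* and *SF3B3*), and 1 otherwise when all libraries were kept, while 4 or 5 were called higher. Over all genes this correction called 1519 lower and 1331 higher, against 690 and 804 without it, and with the replicate block 1280 lower. DESeq2 called 855 of all genes lower and 918 higher. Leaving out 1 library gave 0 to 3 lower and 0 to 7 higher of the 53 genes, and 233 to 1238 lower and 289 to 1274 higher of all genes. The extremes were 0 and 0 without knockdown replicate 1, 3 lower without control replicate 2 and 7 higher without control replicate 3.

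Over the 15 alternatives the sign turned in 20 of the 53 genes and in 0 of the 5 called ones. The farthest turn was that of *SNRPE*, from -0.20 to 0.14 without control replicate 2, where *SNRPD2* (0.06) and *SNRPC* (0.03) turned as well. With library sizes alone the log2 fold change of *HNRNPUL2* was 0.0017. With the correction *SNRPB2* was at 0.021 and *HNRNPH1* at 0.00091, and with block and correction they were at 0.026 and 0.0071. With 1 library left out, the log2 fold change ranged from -0.026 to 0.152 for *HNRNPA2B1*, from -0.059 to 0.034 for *HNRNPUL2*, from -0.055 to 0.168 for *SNRPD1*, from -0.216 to 0.041 for *SF3B5*, from -0.049 to 0.0040 for *PRPF40B*, from -0.0083 to 0.162 for *SNRPA*, from -0.183 to 0.067 for *SNRPB2*, from -0.136 to 0.062 for *HNRNPH1* and from -0.038 to 0.151 for *PRPF38B*. The cause was not tested. A group of 2 libraries has less power than one of 3.

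The replicate numbers did not pair the libraries. Deviations of same-numbered libraries correlated at -0.20, -0.11 and -0.04, and no library correlated best with its own number. With the number as a replicate block 619 genes were called lower and 714 higher, of which 1 and 4 were among the 53. *HNRNPF* was not called with the block (adjusted p = 0.106) and *SNRPG* was (adjusted p = 0.0288).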
